A study of Mus musculus with 2 samples.

Results

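Mast cells and basophils are the granule-bearing cells that release histamine when IgE on their surface is cross-linked. The 10 genes described here are known for their part in these cells, and were chosen by name among the 32285 gene features measured in nuclei of fetal mouse lung. They are the histamine synthesis gene Hdc, the granule protease genes Cpa3, Cma1, Mcpt4, Tpsb2 and Mcpt8, the growth factor receptor gene Kit, the IgE receptor chain gene Ms4a2, the transcription factor gene Gata2, and Cyp11a1, whose enzyme takes the first step of steroid synthesis. All 10 were found once by name in both libraries, and all had at least 1 UMI (unique molecular identifier, a counted RNA molecule) in both.

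RNA and open chromatin had been read together from each nucleus, in 1 library per group, from fetal lungs of wild-type C57BL/6J mice on gestation day 18. The PBS library pooled 9 fetuses of a mother sensitised with the alum vehicle and given PBS into the nose during pregnancy. The OVA library pooled 8 fetuses of a mother sensitised with ovalbumin (OVA) in alum and given OVA into the nose. In both groups the mothers had been bred to untreated males, and per the study each pool came from a single dam. ILC2s (group 2 innate lymphoid cells, gated as CD45+ Lin- ST2+), CD45+ leukocytes and EpCAM+ epithelium were each taken by flow sorting and pooled ahead of nuclear isolation. The lineage cocktail of the ILC2 gate held no mast cell or basophil antigen, and ST2, the product of Il1rl1, is also carried by mast cells, so the sort sets the shares of nuclei. With 1 library per group there was no replicate check and no test between groups. All intervals below are 95% intervals for counting error only, and differences compare these libraries, not the conditions.

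As background, mast cells and basophils share histamine, the high-affinity IgE receptor and a dependence on GATA2. Tissue mast cells depend on the receptor KIT and, in connective tissue, store the chymases encoded by Cma1 and Mcpt4, the tryptase encoded by Tpsb2 and the carboxypeptidase encoded by Cpa3. Mouse basophils carry little KIT at maturity, and the protease encoded by Mcpt8 is their usual mark.

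The stretches of DNA in front of the genes are shown because most of the granule genes share few CG pairs and GATA letters there. They come from RefSeq on GRCm38.p6, which held a promoter for 9 of the 10 genes, with 12 starts in all. Tpsb2 had no entry. Each runs from 250 bases before to 50 bases after an annotated start, 5′ to 3′, and capitals mark either strand of the motif AGATAA, of the same motif with a first T (TGATAA) or with a last G (AGATAG), and of the motif with both changes (TGATAG), the letters that GATA factors are known to bind. The positions were chr2:126618629-126618928, minus strand, for Hdc, chr3:20242132-20242431, minus strand, for Cpa3, chr14:55944626-55944925, minus strand, for Cma1 and chr14:56062261-56062560, minus strand, for Mcpt4. Those of Mcpt8 (chr14:56085148-56085447, minus strand), Ms4a2 (chr19:11623670-11623969, minus strand) and the inner start of Cyp11a1 (chr9:58014702-58015001, plus strand) follow.
Hdc: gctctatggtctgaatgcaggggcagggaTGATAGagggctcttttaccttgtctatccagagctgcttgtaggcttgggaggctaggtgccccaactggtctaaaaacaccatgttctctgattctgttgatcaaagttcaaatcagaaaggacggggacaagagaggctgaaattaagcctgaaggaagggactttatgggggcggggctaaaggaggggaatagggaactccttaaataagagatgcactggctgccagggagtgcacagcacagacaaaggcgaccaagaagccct
Cpa3: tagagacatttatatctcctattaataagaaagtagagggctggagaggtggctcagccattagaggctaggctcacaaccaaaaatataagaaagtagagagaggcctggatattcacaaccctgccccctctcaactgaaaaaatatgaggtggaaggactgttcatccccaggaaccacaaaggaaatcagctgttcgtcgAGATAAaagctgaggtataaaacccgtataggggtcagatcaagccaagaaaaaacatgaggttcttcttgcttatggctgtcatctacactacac
Cma1: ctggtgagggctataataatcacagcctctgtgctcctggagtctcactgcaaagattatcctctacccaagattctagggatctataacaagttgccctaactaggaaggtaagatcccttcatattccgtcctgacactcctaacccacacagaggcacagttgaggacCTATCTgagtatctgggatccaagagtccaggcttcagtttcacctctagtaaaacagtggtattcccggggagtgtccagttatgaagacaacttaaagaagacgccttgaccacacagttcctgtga
Mcpt4: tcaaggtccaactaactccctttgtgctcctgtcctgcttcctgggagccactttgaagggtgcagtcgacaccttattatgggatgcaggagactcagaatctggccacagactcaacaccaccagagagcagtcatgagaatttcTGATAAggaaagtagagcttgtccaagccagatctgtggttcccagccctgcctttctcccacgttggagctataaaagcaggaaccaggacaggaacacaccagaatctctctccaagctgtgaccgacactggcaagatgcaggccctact
Mcpt8: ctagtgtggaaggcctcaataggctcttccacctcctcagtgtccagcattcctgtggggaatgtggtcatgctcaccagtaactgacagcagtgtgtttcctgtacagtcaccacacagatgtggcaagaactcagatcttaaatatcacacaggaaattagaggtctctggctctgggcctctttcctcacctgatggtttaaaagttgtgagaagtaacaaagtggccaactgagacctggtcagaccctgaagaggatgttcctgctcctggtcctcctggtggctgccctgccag
Ms4a2: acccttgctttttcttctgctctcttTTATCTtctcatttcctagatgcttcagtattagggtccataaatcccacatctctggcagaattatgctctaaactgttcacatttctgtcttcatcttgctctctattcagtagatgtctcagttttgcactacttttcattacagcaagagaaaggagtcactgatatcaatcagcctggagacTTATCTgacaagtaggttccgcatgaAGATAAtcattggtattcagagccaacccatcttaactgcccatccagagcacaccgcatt
Cyp11a1: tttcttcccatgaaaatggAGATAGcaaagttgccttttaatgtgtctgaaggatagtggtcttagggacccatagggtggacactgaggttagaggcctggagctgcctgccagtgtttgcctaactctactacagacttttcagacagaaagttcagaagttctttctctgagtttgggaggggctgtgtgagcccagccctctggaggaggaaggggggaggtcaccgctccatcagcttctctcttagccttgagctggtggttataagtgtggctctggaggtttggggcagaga
GATA letters were present in front of 6 of the 9 genes. They began 221 bases before the start of Hdc, 46 before Cpa3, 79 before Cma1, 103 before Mcpt4 and 231 before the inner start of Cyp11a1. Ms4a2 held 3 matches, at 224, 37 and 11 bases before its start. Mcpt8, Kit and Gata2 held none. Of 32544 RefSeq promoters of this length, 29.6% held at least 1 match and 7.61% at least 2, so 1 match is common, and a match is only a description of the letters. An E-box, searched as CACGTG on both strands and as its variant form CATGTG, which reads from the other strand as CACATG, the letters MITF is known to bind, was found in front of 1 of the 12 starts, the outer one of Cyp11a1, against 20.5% of all promoters. The CG pair occurred at most 3 times in front of Hdc, Cpa3, Cma1, Mcpt4, Mcpt8 and Ms4a2 and 1 time at the inner start of Cyp11a1. It occurred 20 and 21 times at the Kit starts and 29 and 32 times at the Gata2 starts, against a median of 7 over all promoters.

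The members' RNA was concentrated in 1 small class, but much of it lay outside. Nuclei were clustered without these 10 genes, and 1 cluster was named Mast cell or basophil-like from 9 other markers. It held 48 PBS nuclei, which is under 50, and 115 OVA nuclei. Its share was 1.13% in PBS (0.831 to 1.49, Clopper-Pearson) and 2.31% in OVA (1.91 to 2.76). Of the member UMIs in kept nuclei, 822 of 1974 (41.6%, 39.5 to 43.9) lay in the class in the PBS library. In the OVA library the class held 2818 of 5590 (50.4%, 49.1 to 51.7).

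The markers that gave the class its name are described here, and they are no check of that name. Of the 9 markers 8 were detected in both libraries, among them the serotonin and histamine transporter gene Slc18a2 (542 CPM in the PBS class and 573 in the OVA class), the basophil-side gene Cd200r3 (181 and 179 CPM) and the tryptase gene Tpsab1 (90.4 and 205 CPM). CPM are UMIs per 1000000 UMIs of the nuclei summed. The ninth, Fcer1a, which encodes the IgE-binding chain of the receptor and defines both cell types, had 0 UMIs in both. A count of 0 allows up to 54.2 CPM in the PBS class and 15.4 CPM in the OVA class. Summed, the 9 markers reached 1843 CPM in the PBS class and 111 CPM in all other PBS nuclei, and 2703 and 135 CPM in the OVA library. Granule proteins of eosinophils were absent, with Epx and Prg2 at 0 UMIs in both. The 7 neutrophil markers summed to 361 CPM in the PBS class (20 UMIs), against 81.0 CPM in other PBS nuclei, with 3 at least 4-fold higher, and to 5.12 CPM in the OVA class (1 UMI), against 76.6 CPM. Neutrophil-like nuclei also carried Hdc, and the part of neutrophil RNA in the PBS values was not tested. All 8 ILC2 markers were detected, at a summed 3054 CPM in the PBS class and 985 CPM in all other nuclei, and 3384 and 1499 CPM in the OVA library. Of these, Il1rl1 gave 1627 and 1505 CPM, while the ILC2-defining gene Gata3 stood at 72.3 and 87 CPM, 1.49-fold and 1.27-fold over other nuclei. The part of ILC2 RNA in the members' values was not tested.

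Depth and RNA quality differed between the libraries. The PBS library held 11473351 gene UMIs in 8019 barcodes and the OVA library 13774959 in 5960, and 54 barcodes occurred in both. The 4263 kept PBS nuclei had a median of 1113 UMIs and the 4985 kept OVA nuclei 1818. Within the class the medians were 996 and 1305 UMIs, and mitochondrial genes took 43.8% and 36.1% of its UMIs.

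Every member stood far above the other nuclei. With UMIs of the class and of all other nuclei each summed, the gene for histamine synthesis, Hdc, was 126-fold higher in the PBS class (103 to 154) and 112-fold higher in the OVA class (100 to 125). Its PBS UMIs were 208 in the class and 194 in all other nuclei, and its OVA UMIs were 1025 and 505. Kit showed the smallest fold in both libraries, 29.2 (22.7 to 37.1) and 21.5 (18.9 to 24.3). Among genes with at least 20 UMIs over all kept nuclei, 5.25% of 11788 PBS genes and 3.73% of 13183 OVA genes were at least 4-fold higher in the class. All 8 members that reached 20 UMIs in the PBS library and all 9 in the OVA library were at least 4-fold higher. Mcpt8 and Ms4a2 were below 20 UMIs in the PBS library, and Ms4a2 in the OVA library. Although the members had been left out of the clustering, genes that vary with them had not, so these folds describe the class and are no test.

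Among genes that are not members, those with the highest fold in both libraries included the kinase gene Prkcb (at least 26.6-fold in both), the ST2 gene Il1rl1 (17.2), the interferon-induced Ifitm1 (14.3), St6galnac3 (12.1) and the prostaglandin synthase gene Ptgs2 (9.92). Srgn, whose product binds granule proteases, was at least 6.75-fold higher, and others were B2m (6.71), Laptm5 and Ankrd44 (both 5.75). These were chosen from the 44 genes with at least 50 UMIs in the class of each library.

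**Figure D1:**
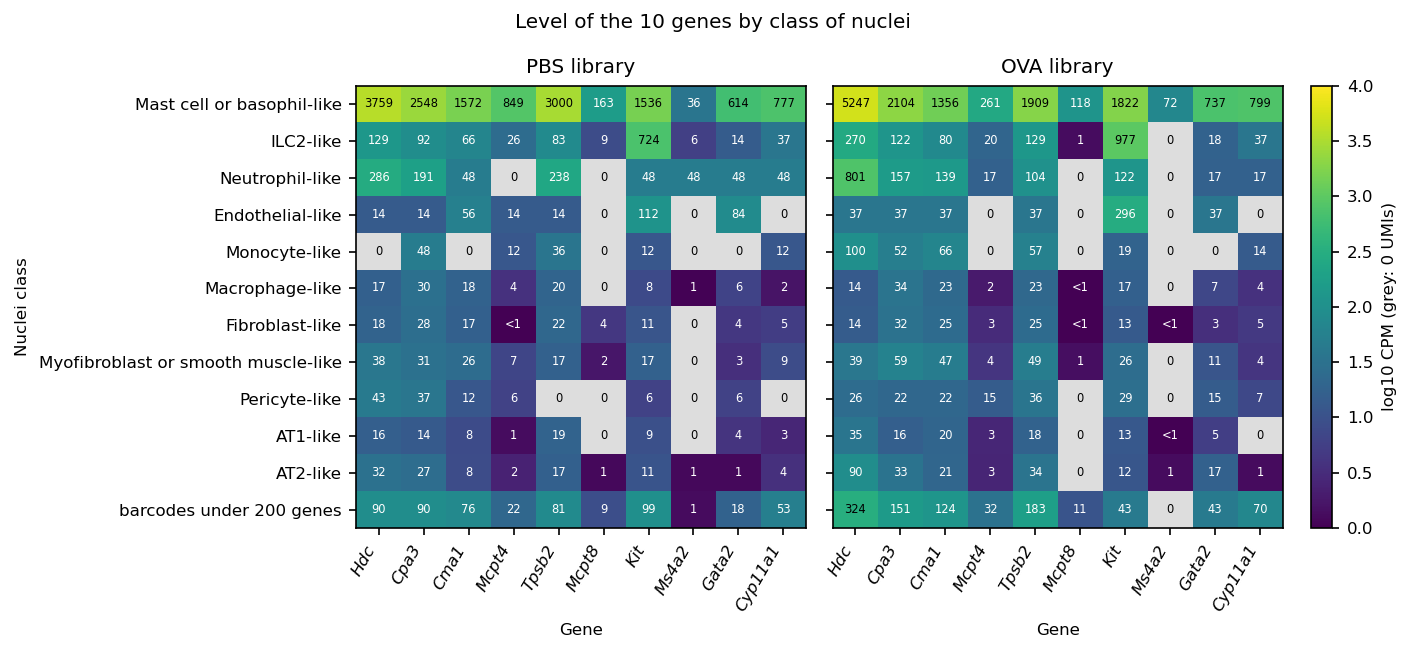
Level of each gene (columns, CPM printed in the cell, colour on a log10 scale, grey for 0 UMIs) in the named classes of nuclei (rows, with B cell-like, Club-like and Mesothelial-like nuclei not drawn) of the PBS and OVA libraries, with barcodes under 200 genes as the last row. The Mast cell or basophil-like row is the highest for all 10 genes except Ms4a2 in the PBS library, where 1 UMI in 21 Neutrophil-like nuclei gives 47.7 CPM against 36.1 in the class, and the next broad signal is Kit in ILC2-like nuclei at 724 and 977 CPM.

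Hdc and Cpa3 were found in most nuclei of the class. Hdc was found in 42 of 48 PBS nuclei and in 107 of 115 OVA nuclei, at 3759 CPM (3266 to 4306, Poisson) and 5247 CPM (4930 to 5578). Cpa3, the carboxypeptidase of mast cell granules that basophils also make, was found in 36 PBS and 75 OVA nuclei, at 2548 CPM (2145 to 3005) and 2104 CPM (1905 to 2317). A UMI of these genes was therefore the rule in the class, and it is rare in nuclei that should lack them: in Macrophage-like nuclei, with deeper medians of 1435 and 2222 UMIs, Hdc was found in 2.25% and 2.73% of nuclei.

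The tryptase gene Tpsb2 was found in 26 of 48 PBS nuclei and 55 of 115 OVA nuclei. Its level was 3000 CPM (2561 to 3493) in the PBS class and 1909 CPM (1720 to 2113) in the OVA class. The chymase gene Cma1 was found in 24 and 61 nuclei, at 1572 CPM (1259 to 1939) and 1356 CPM (1198 to 1530). These tissue mast cell proteases were thus seen in about as many nuclei as not, while Hdc was seen in most. Mcpt4, the other chymase gene, was found in only 8 PBS and 13 OVA nuclei, at 849 CPM (624 to 1130) and 261 CPM (194 to 343). In each library 1 nucleus held much of it, with 25 of 47 PBS UMIs and 15 of 51 OVA UMIs. Mcpt4 followed the other chymase, since 7 of its 8 PBS nuclei and 11 of its 13 OVA nuclei also had Cma1.

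Of the receptors and regulators, Kit was the most widely detected. It was found in 37 of 48 PBS nuclei and 87 of 115 OVA nuclei, at 1536 CPM (1227 to 1900) and 1822 CPM (1638 to 2022). Gata2 was found in 21 and 57 nuclei, at 614 CPM (426 to 859) and 737 CPM (622 to 868). Neither had more than 14 UMIs in any nucleus. Cyp11a1 was found in 25 PBS and 72 OVA nuclei, at 777 CPM (562 to 1047) and 799 CPM (678 to 934). Ms4a2, the beta chain of the IgE receptor, was found in 2 and 12 nuclei with 2 and 14 UMIs, which gave 36.1 CPM (4.38 to 131) and 71.7 CPM (39.2 to 120). Levels are not compared between genes here, since UMIs were not scaled by length and the genes span 2685 to 81807 bp. Reads of the tryptase pair Tpsb2 and Tpsab1 and of the chymase-related genes on chromosome 14 can be split or lost between near-identical copies, so these levels are uncertain.

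The basophil protease gene Mcpt8 was rare. It was found in 3 of 48 PBS nuclei (6.25%, 1.31 to 17.2) with 9 UMIs, and in 9 of 115 OVA nuclei (7.83%, 3.64 to 14.3) with 23 UMIs. In the class it stood at 163 CPM (74.4 to 309) and 118 CPM (74.6 to 177), and in all other kept nuclei at 1.54 CPM (0.74 to 2.84) and 0.465 CPM (0.151 to 1.09). Those other nuclei held 10 UMIs in PBS, of which 5 were in Fibroblast-like and 3 in ILC2-like nuclei, and 5 UMIs in OVA. Over all PBS barcodes the class thus held 9 of 35 Mcpt8 UMIs, and over all OVA barcodes 23 of 34.

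Mcpt8 and the mast cell proteases overlapped little in the PBS library and in part in the OVA library. Of 29 PBS nuclei with a UMI of Cma1, Mcpt4 or Tpsb2, 0 had Mcpt8, which allows a share of up to 10.3%, while 3 of 19 without them did (15.8%, 3.38 to 39.6). Of 77 such OVA nuclei, 5 had Mcpt8 (6.49%, 2.14 to 14.5), and 4 of 38 without them did (10.5%, 2.94 to 24.8). The intervals overlap in both libraries, so at this depth no difference could be detected. The PBS limit of 10.3% also covers the OVA share of 6.49%, so the overlap could not be told apart between the libraries. All 9 OVA nuclei with Mcpt8 had Hdc and 5 had Kit, and 5 of them had Ms4a2 against 7 of the other 106. Of the 3 PBS nuclei with Mcpt8, 2 had Hdc, 0 had Kit and 0 had Ms4a2.

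**Figure D2:**
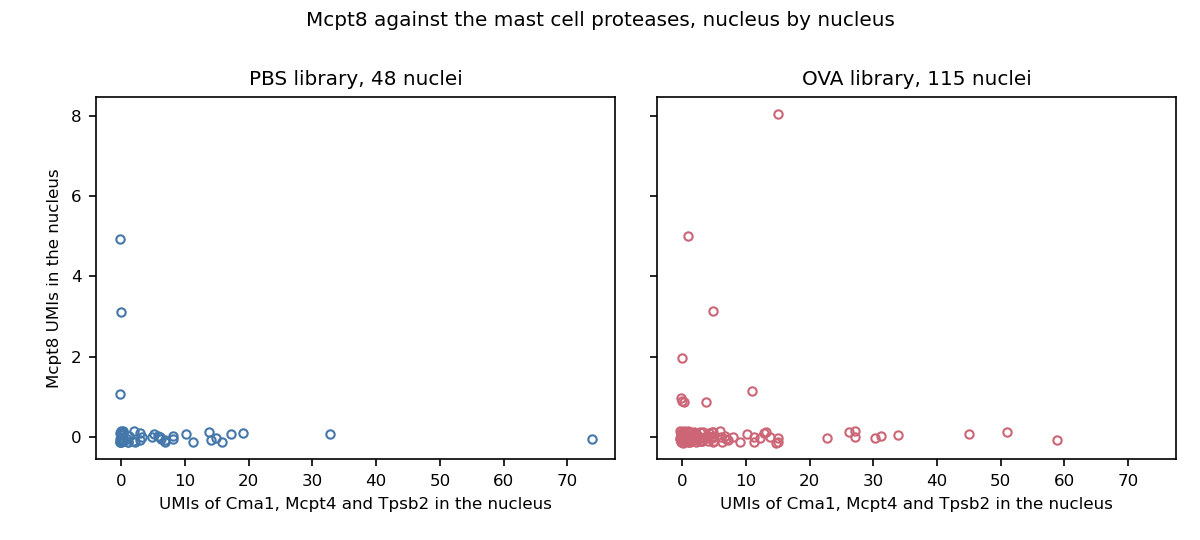
UMIs of Mcpt8 (y axis) against the summed UMIs of Cma1, Mcpt4 and Tpsb2 (x axis), 1 point per nucleus of the class, with a small random shift so that points at the same whole number do not hide each other. In the PBS library all 3 nuclei with Mcpt8 lie at 0 on the x axis, and in the OVA library 5 of 9 lie above 0.

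Nuclei with no UMI of Mcpt8, Cma1, Mcpt4 or Tpsb2 came to 16 of the PBS class and 34 of the OVA class. They held Hdc at 4327 and 6195 CPM, Kit at 2072 and 1818 CPM and Cyp11a1 at 1280 and 1145 CPM. These levels were near or above those of the whole class, so the nuclei without a protease UMI were not nuclei without mast cell or basophil RNA. Cpa3 was lower there, at 1463 and 786 CPM. The nuclei with Mcpt8 alone were only 7 over both libraries, with 9850 UMIs, against 165927 UMIs in nuclei with mast cell proteases alone. A single OVA nucleus, with 1 Mcpt8 UMI, held 4656 of the 9850 UMIs, and its part in the levels below was not tested. Of 651 genes with at least 30 UMIs over both sets, those highest in the Mcpt8 nuclei included the integrin gene Itga4 (14 UMIs, 1421 CPM against 199 CPM), the organic cation transporter gene Slc22a3 (12 UMIs, 1218 against 175), Errfi1 and Dock8. In the Mcpt8 nuclei 101 genes had 0 UMIs, led by B2m with 205 UMIs in the other set, Malt1, Calca, Rps27a and Thsd4. Among those with a UMI in both, the highest in mast protease nuclei were Slc38a1 (log2 ratio 3.06, 0.55 to 8.37), Rps15, Ankrd44, Iqgap1 and Osbpl8. Each of these had 1 or 2 UMIs in the Mcpt8 nuclei.

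Sub-clusters of the class, again made without the members, included a small group led by Csf1, Il6 and Ccl3. Sub-cluster 1 held 28 PBS and 42 OVA nuclei, sub-cluster 2 held 14 and 53, and sub-cluster 3 held 6 and 20. The genes that led sub-cluster 3 were Csf1, Il6, Ccl3, Plk3, Itgav, Cxcr4, Herc4, Osm, Cd200r3 and Sec62, of which Il6, Ccl3 and Cd200r3 are on the basophil-side list. Ccl4 of the same list was also highest there, at 51.3, 35.8 and 512 CPM in sub-clusters 1 to 3, though it had 0 UMIs in the PBS nuclei of sub-cluster 3. So were Il18rap (218, 122 and 301 CPM) and Il4 (25.6, 93.2 and 121 CPM, on 2, 13 and 4 UMIs). Cebpa was seen only there, with 2 UMIs in 1 nucleus. The remaining genes of that list did not peak there. Prss34 was 179 CPM in sub-cluster 1, 28.7 in sub-cluster 2 and 90.4 in sub-cluster 3, Itga2 was 76.9, 129 and 30.1 CPM, Il3ra was 64.1, 86 and 60.3 CPM, and Ccr3 had 0 UMIs in all 3. Sub-cluster 3 stayed whole at a finer resolution, with all 26 nuclei in 1 cluster, and it is given no cell type name. Sub-clusters 1 and 2 did not stay whole. Sub-cluster 1 fell into groups of 34, 17, 17 and 2 nuclei, and sub-cluster 2 into groups of 34, 26, 5 and 2. Some of the finer clusters held nuclei of both, so the border between sub-clusters 1 and 2 depended on the resolution. Sub-cluster 1 was led by genes such as Serf2, the ribosomal Rps26, the cathepsin gene Ctsb and the adaptor gene Lat2, and sub-cluster 2 by Ptpn13, Meg3, Ern1, Itga4 and Gzmb.

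Mcpt8 was highest in sub-cluster 3, at 482 CPM with the libraries pooled, against 64.1 in sub-cluster 1 and 78.9 in sub-cluster 2. It was found in 7 of its 26 nuclei, and in 1 of 70 and 4 of 67 in the others. The log2 ratio of sub-cluster 3 over sub-cluster 2 was 2.61 (1.41 to 3.87), with 2.31 (1.00 to 3.63) in the OVA library alone. In the PBS library sub-cluster 2 had no Mcpt8 UMI. Over sub-cluster 1 the pooled Mcpt8 ratio was 2.91 (1.40 to 4.71). In PBS alone that ratio was 1.79 (-0.54 to 4.01), on 4 UMIs in sub-cluster 3 and 5 in sub-cluster 1, so its interval held 0. The OVA nuclei of sub-cluster 1 had 0 Mcpt8 UMIs. Ms4a2 stood at 0, 64.5 and 211 CPM in sub-clusters 1 to 3, on 0, 9 and 7 UMIs. Its log2 ratio of sub-cluster 3 over 2 was 1.71 (0.049 to 3.30), and in each library alone the interval held 0, with 1.77 (-0.035 to 3.49) in OVA and 1.51 (-4.78 to 7.81) in PBS. Cyp11a1 was at 1597 CPM in sub-cluster 3 against 872 and 559 CPM. The Cyp11a1 log2 ratio of sub-cluster 3 over 2 was 1.51 (0.98 to 2.04), with 1.62 (1.05 to 2.18) in the OVA library and 1.00 (-0.63 to 2.54) in the PBS library. Over sub-cluster 1 it was 0.87 (0.33 to 1.41), with 1.01 (0.38 to 1.65) in OVA and 0.22 (-1.23 to 1.46) in PBS.

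The tissue mast cell proteases were highest in sub-cluster 1. Tpsb2 was 3769 CPM there, 1477 in sub-cluster 2 and 1175 in sub-cluster 3. Cpa3 was 3307, 1814 and 1236 CPM, and Mcpt4 was 1000, 108 and 151 CPM. The Tpsb2 log2 ratio of sub-cluster 2 over 1 was -0.70 (-1.21 to -0.20) in PBS and -1.46 (-1.78 to -1.14) in OVA nuclei. Cma1 did not keep this order in both libraries, with 0.059 (-0.61 to 0.71) in PBS and -1.01 (-1.40 to -0.61) in OVA nuclei. Hdc (5345, 4875 and 4098 CPM), Kit (1936, 1756 and 1356) and Gata2 (782, 667 and 723) varied least with the libraries pooled. In PBS alone sub-cluster 3 was lower for 2 of these, with Kit at -1.64 over sub-cluster 1 (-3.57 to -0.20) and Hdc at -1.26 over sub-cluster 2 (-2.23 to -0.42). Depth and quality moved with the sub-clusters, since median UMIs were 1010, 1763 and 998 and the mitochondrial share was 43.1%, 34.8% and 38.1%. Their part in these differences was not tested.

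**Figure D3:**
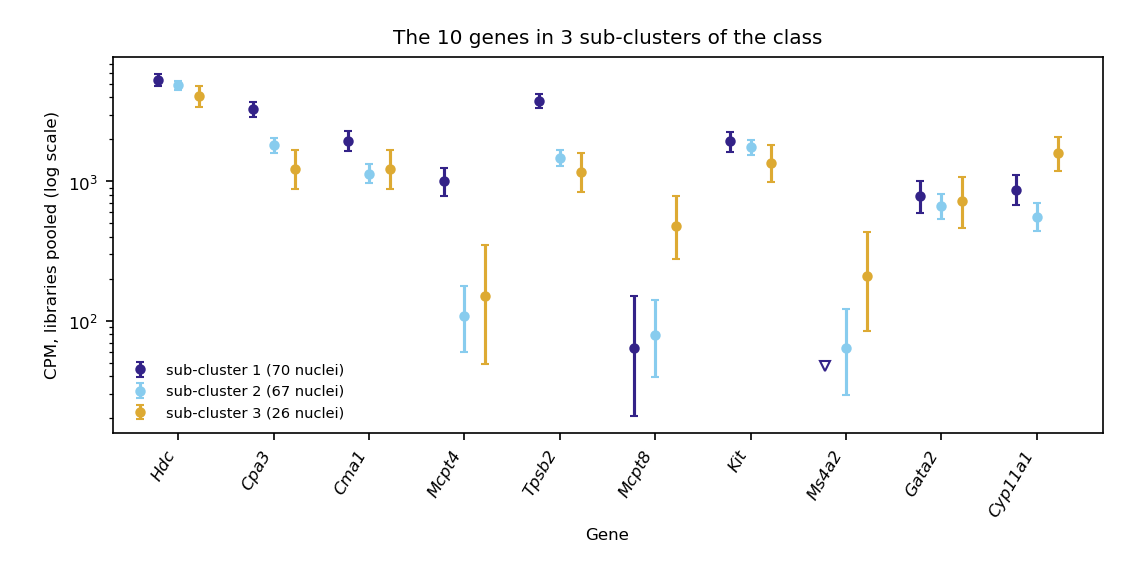
Level (CPM, log scale, libraries pooled) of each gene in the 3 sub-clusters of the class, with 95% Poisson intervals. The open triangle marks the limit that 0 UMIs allow for Ms4a2 in sub-cluster 1, and sub-cluster 3 lies highest for Mcpt8, Ms4a2 and Cyp11a1, at 482, 211 and 1597 CPM.

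Kit alone had a broad second site. In ILC2-like nuclei it reached 724 CPM in PBS (252 UMIs, 637 to 819 CPM) and 977 CPM in OVA (713 UMIs, 906 to 1051 CPM). That was 47.1% and 53.6% of its level in the class. It was found in 165 of 370 PBS nuclei (44.6%) at a median of 817 UMIs, and in 302 of 488 OVA nuclei (61.9%) at a median of 1270 UMIs. With all nuclei thinned to the same 500 UMIs of nuclear genes, the shares were 39.7% (32.0 to 47.9) and 46.7% (41.8 to 51.6). Macrophage-like nuclei had Kit in 0.864% and 2.10% of nuclei, at 7.98 and 16.6 CPM, which places the ILC2-like signal far above background. The OVA over PBS log2 ratio in ILC2-like nuclei was 0.43 (0.22 to 0.64), where the median of 4989 genes was 0.33. Endothelial-like nuclei, of which there were 21 and 26, had Kit at 112 and 296 CPM and Gata2 at 83.8 and 37.0 CPM, the latter from few UMIs.

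Hdc had its second site in Neutrophil-like nuclei. It had 46 UMIs in 29 of 61 OVA nuclei, or 801 CPM (586 to 1068), and 6 UMIs in 5 of 21 PBS nuclei, or 286 CPM (105 to 622). Neutrophils are known to make histamine-forming enzyme. The proteases were lower in the same OVA nuclei, with Cpa3 at 157, Cma1 at 139 and Tpsb2 at 104 CPM. Monocyte-like nuclei had Hdc at 0 UMIs in PBS, which allows up to 36.1 CPM, and at 99.7 CPM (61.7 to 152) in OVA.

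Granule genes were also counted at low levels outside the class. Barcodes with fewer than 200 genes, a description of RNA outside nuclei, had Hdc at 90.2 CPM in PBS and 324 CPM in OVA, Tpsb2 at 81.2 and 183, Cpa3 at 90.2 and 151, and Cma1 at 76.0 and 124 CPM. ILC2-like nuclei stood at 129 CPM (94.3 to 173) and 270 CPM (233 to 310) for Hdc, 83.3 and 129 for Tpsb2, 91.9 and 122 for Cpa3 and 66.1 and 79.5 for Cma1. Macrophage-like nuclei were lower, with Hdc at 17.0 and 13.8 CPM and Tpsb2 at 19.7 and 22.6 CPM. The granule UMIs of ILC2-like nuclei were thus near the level of barcodes under 200 genes and above that of Macrophage-like nuclei, though OVA Neutrophil-like nuclei stood higher for Hdc, Cpa3 and Cma1, and single nuclei held many of them, with up to 11 of 29 PBS and 18 of 94 OVA Tpsb2 UMIs in 1 nucleus. The part of free RNA, of joined nuclei that were not called as doublets and of ILC2 RNA in these levels was not tested, and they are not read as expression.

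For 2 signals the nuclei lay above the level in these barcodes. Kit in barcodes under 200 genes was 99.2 CPM (78.3 to 124) in PBS and 43.2 CPM (18.6 to 85.0, on 8 UMIs) in OVA, below the 724 and 977 CPM of ILC2-like nuclei. Hdc of Neutrophil-like nuclei, at 286 and 801 CPM, lay above its 90.2 and 324 CPM, with intervals that overlap in PBS, where it rests on 6 UMIs. Cyp11a1 did not stand above these barcodes. It was 52.8 and 70.1 CPM in these barcodes and 37.4 and 37.0 CPM in ILC2-like nuclei, and it was at most 17.4 CPM in every other named OVA class of at least 50 nuclei.

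Of the member UMIs of all barcodes, the class held 24.3% in PBS and 40.8% in OVA. Other kept nuclei held 34.1% and 40.2%, and doublet calls 15.2% and 13.7%. Barcodes that failed the limits on genes or mitochondrial RNA held 12.4% and 14.0% in the PBS library, and 2.64% and 2.70% in the OVA library.

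With the main settings, most members differed little between the libraries within the class. The median log2 ratio of OVA over PBS was -0.087 over the 10 members and 0.35 over the 1649 genes with at least 20 UMIs in the class, of which 68.6% were above 0. Counted against nuclear genes only, the medians were -0.27 and 0.16. Of all 1649 genes, 22.7% stood 2-fold or more above PBS in the OVA class and 3.34% stood 2-fold or more below. Of the 9 members with at least 20 UMIs, 0 were at least 2-fold higher and 1, Mcpt4, was at least 2-fold lower. Because UMIs are relative to all RNA of the class, a log2 ratio below 0.35 lies below that of the middle gene.

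Hdc was the 1 member whose level was higher in the OVA library beyond counting error, with a log2 ratio of 0.48 (0.26 to 0.70), close to the median of all genes. Tpsb2 was lower, at -0.65 (-0.92 to -0.38), and Mcpt4 was lower, at -1.70 (-2.30 to -1.10). Cpa3 stood at -0.28 (-0.56 to 0.0099) and Cma1 at -0.21 (-0.57 to 0.15). The 4 mast cell proteases were thus all below the median gene, and their intervals left that median out. Without the nucleus with most UMIs of the gene in each library, Mcpt4 was at -1.13 (-1.94 to -0.30) and Tpsb2 at -0.49 (-0.79 to -0.19). The mix of sub-clusters also differed, with sub-cluster 1, where these proteases were highest, holding 28 of 48 PBS and 42 of 115 OVA nuclei. Its part in the ratios was not tested.

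Kit (0.25, -0.099 to 0.61), Gata2 (0.26, -0.28 to 0.85) and Cyp11a1 (0.039, -0.46 to 0.56) had intervals that held both 0 and the median gene. The ratios of Kit and Cyp11a1 depended on the count filter, and were 1.22 and 1.49 with the joint filter on counts. The PBS class under that filter shared 20 nuclei with the 48 used here. Its Cyp11a1 level was 217 CPM, against 777 CPM here. Mcpt8 was at -0.47 (-1.63 to 0.83), and without its top nucleus in each library at 0.086 (-1.56 to 2.14). Ms4a2 was at 0.99 (-1.13 to 4.17) on 2 and 14 UMIs. For these last 2 genes the depth does not show a direction.

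**Figure D4:**
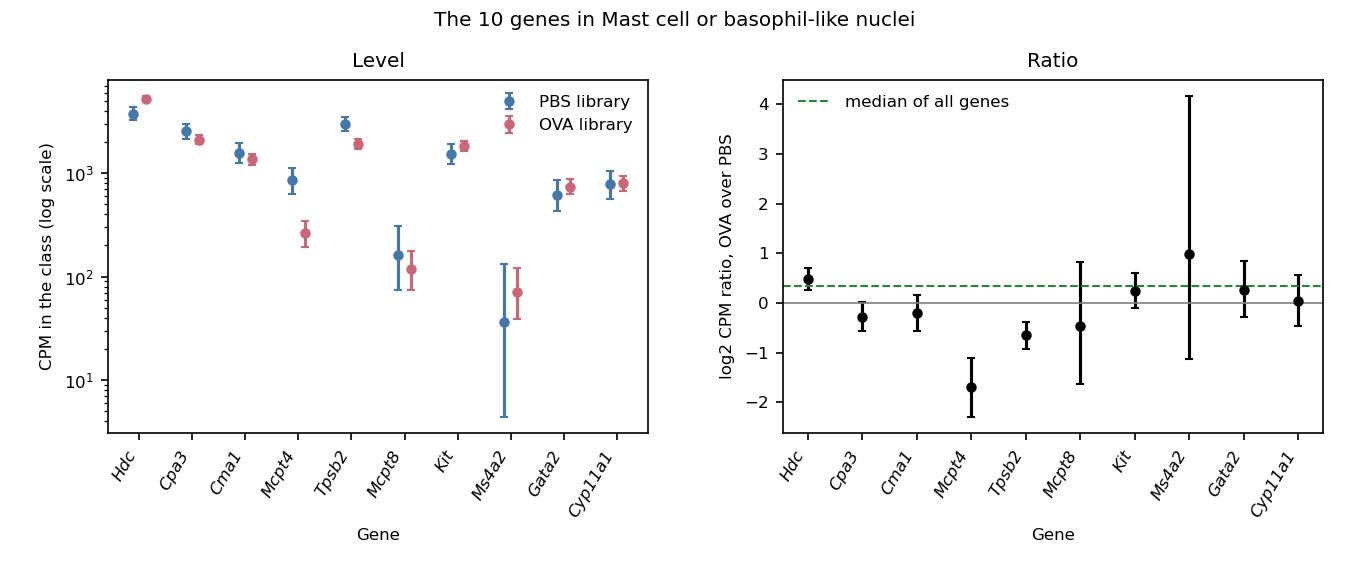
Left, level (CPM, log scale) of each gene in the Mast cell or basophil-like nuclei of the PBS and OVA libraries; right, log2 ratio of OVA over PBS; bars are 95% counting intervals and the dashed line is the median of all genes, 0.35. Hdc lies above 0, Tpsb2 and Mcpt4 lie below it, and the intervals of the other 7 genes hold 0.

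Genes that work with the members were read from 7 lists. Of the 15 mast-side genes, 8 had at least 20 UMIs in the class and their median log2 ratio was 0.28, with 2 at least 2-fold higher and 0 lower, where 22.7% of all 1649 genes were higher and 3.34% lower by this rule. The counts of all 7 lists rest on few genes and are to be read beside these shares. The 2 were Tpsab1 (5 and 40 UMIs, 1.18, -0.16 to 2.88) and the granule transport gene Rab27b (1.21, 0.70 to 1.76). Of the 11 basophil-side genes, 7 reached 20 UMIs with a median of 0.58. Ccl3 (1.54, 0.072 to 3.48) and Il6 (1.60, -0.081 to 3.95) were at least 2-fold higher and the basophil protease gene Prss34 (-1.12, -2.50 to 0.36) at least 2-fold lower. The Prss34 and Il6 intervals held 0. On both lists most genes were at least 4-fold higher in the class than in other nuclei, 4 of 5 and 10 of 11 mast-side genes and 7 of 8 and 9 of 10 basophil-side genes in PBS and OVA, where 20 UMIs over all kept nuclei were reached, against 5.25% and 3.73% of all genes. The markers that named the class include 5 mast-side and 3 basophil-side genes, and the list genes were not left out of the clustering. These counts were therefore partly fixed by the clustering and naming.

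The IgE receptor signalling list had 8 of 16 genes with 20 UMIs, a median of 0.24, and 0 genes at least 2-fold apart either way. Its shared gamma chain gene Fcer1g was 4.98-fold and 6.29-fold higher in the class than in other nuclei, and the adaptor gene Lat2 40.3-fold and 24.1-fold. With Fcer1a at 0 and Ms4a2 at few UMIs, the gamma chain was the 1 receptor chain well detected. Of the genes for histamine handling and lipid mediators, 7 of 11 reached 20 UMIs, with a median of 0.26. The serotonin synthesis gene Tph1 was 67.8-fold and 31.3-fold higher in the class than in other nuclei, and the prostaglandin D synthase gene Hpgds 16.4-fold and 21.2-fold. The leukotriene gene Alox5 was the 1 that stood 2-fold or more above PBS (1.68, 0.014 to 4.03), while Ltc4s and the histamine-degrading Hnmt had 0 UMIs in the class of both libraries.

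Of 12 transcription factor genes 3 reached 20 UMIs, with a median of 0.58, and Runx1 was 127 CPM in the PBS class and 630 CPM in the OVA class (2.32, 1.23 to 3.66). Of the 10 such genes with 20 UMIs over all kept nuclei, 0 were at least 4-fold higher in the class in either library, unlike Gata2. Genes below that count included Tal1, 46.9-fold and 34.4-fold higher on 2 and 5 UMIs, and the GATA2 relative Gata1, with 0 and 2 UMIs. Of 10 growth factor and alarmin receptor genes 5 reached 20 UMIs, with a median of 0.35. The shared beta chain genes Csf2rb (723 and 686 CPM) and Csf2rb2 (90.4 and 205 CPM) were in the class in both libraries, and Csf2rb2 was the 1 at least 2-fold higher (1.18, -0.16 to 2.88).

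On the steroid list the genes that act after Cyp11a1 were not detected. Of 13 genes 3 reached 20 UMIs. Cyp11b1, Cyp21a1, Cyp17a1, Hsd3b1 and Hsd3b6 had 0 UMIs in the class, and Star, which brings cholesterol to it, had 0 and 2. Its electron donor gene Fdx1 had 0 UMIs in the PBS class and 22 in the OVA class, at 113 CPM. In the OVA sub-clusters Fdx1 stood at 82.1, 91.5 and 265 CPM, the last from 7 UMIs in 2 nuclei. The glucocorticoid receptor gene Nr3c1 was 524 and 993 CPM (0.92, 0.35 to 1.54), and Por stood at 0.77 (-0.62 to 2.49). At this depth a gene with 0 UMIs may still be made at a low level.

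Chromatin near the members was more open in the class than elsewhere. The PBS file held 105 peaks and the OVA file 95 within 50 kb of the members' starts, of which 83 and 84 overlapped a peak of the other library. Peaks had been called in each library separately. Transposition counts summed over the overlapping peaks, per 1000000 counts in peaks, were 3.40-fold higher in the class than in other nuclei in the PBS library (log2 1.77, 1.65 to 1.88) and 3.62-fold in the OVA library (1.85, 1.78 to 1.93). Both cut ends of a fragment can be counted, so these intervals understate the counting error. Among peaks with at least 10 counts in the class, 14.7% of 17720 PBS peaks and 17.2% of 39760 OVA peaks were at least 4-fold higher there. Near the members this held for 23 of 31 PBS peaks (74.2%) and 42 of 63 OVA peaks (66.7%).

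The fold differed among the members. Summed over the peaks of a gene, it was highest around Mcpt8 (21.4-fold in PBS and 24.1-fold in OVA) and Mcpt4 (11.3 and 22.2), which lie side by side on chromosome 14 and share peaks. Tpsb2 (5.58 and 5.21) and Cyp11a1 (5.35 and 5.62) followed. Kit (2.75 and 3.12) and Gata2 (2.57 and 2.60) were lower. Around Ms4a2, whose RNA was also scarce, the fold was 1.10 (log2 0.14, -0.63 to 0.80) and 0.712 (log2 -0.49, -1.03 to 0.0097).

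Peaks at the starts were read apart from distal peaks, which were picked for a high fold, so the folds of the 2 kinds are not compared evenly. In the OVA library no peak was called within 1 kb of the starts of Cpa3, Cma1, Mcpt4, Mcpt8 or Ms4a2, whose promoters are printed above. In the PBS library Cma1 had a peak at its start, with 2 counts in the class (6.15-fold, 0.692 to 25.7). The start peaks of Hdc (7.43-fold, 4.42 to 12.0, in OVA, and 3.61-fold in PBS nuclei) and of Kit (3.37 and 1.79) had lower folds than their distal peaks. At the Kit start ILC2-like nuclei had 5.08-fold more counts per 1000000 than the nuclei outside both classes in the OVA library. The Gata2 start was 2.79-fold and 2.96-fold. The starts of Cyp11a1, at its inner promoter, and of Tpsb2 stood apart, with 17.0-fold (11.4 to 25.2) and 31.8-fold (19.5 to 51.9) in the OVA library and 33.6-fold and 51.6-fold in the PBS library.

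Distal peaks were picked in the OVA library by their fold and then read in the PBS library, so the OVA folds are a description. The Hdc peak at chr2:126627211-126628139, centred 8997 bp upstream over an exon of the neighbouring gene Gabpb1, had 58 counts in the OVA class and 30 in all other OVA nuclei, 53.6-fold higher per 1000000 counts in peaks. In the PBS library the overlapping peak had 16 and 21 counts, 42.1-fold higher (20.6 to 84.8). The intergenic peak at chr14:55929149-55930027, 15087 bp downstream of the Cma1 start, was 47.4-fold and, in PBS nuclei, 34.2-fold higher (20.2 to 57.2). Both peaks lie well outside the 300-base promoters printed above.

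The intergenic peak at chr14:56086335-56087298 is 1620 bp upstream of Mcpt8 and 24504 bp upstream of Mcpt4, so it was picked for both. It was 68.2-fold higher in the OVA class, on 32 counts in the class and 13 elsewhere, and 24.6-fold in the PBS class (5.53 to 88.1) on 4 and 9. On the other side of Mcpt4, 4310 bp downstream of its start, the peak at chr14:56057498-56058509, named after its values were seen, was 53.9-fold higher in the OVA class and 129-fold in the PBS class (46.6 to 410). Within the OVA class the peak near Mcpt8 had 41.4 counts per 1000000 in sub-cluster 1 (25.3 to 63.9), 5.39 in sub-cluster 2 (1.47 to 13.8) and 36.3 in sub-cluster 3 (15.7 to 71.5). It thus did not follow the Mcpt8 RNA alone, which was low in sub-cluster 1.

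Tpsb2 had its distal peak at chr17:25360276-25361162, 5586 bp upstream, at 38.0-fold in the OVA and 45.3-fold in the PBS library (16.6 to 120). In the OVA sub-clusters this peak had 47.6, 18.9 and 0 counts per 1000000, with an interval of 0 to 16.7 for the last. The Tpsb2 RNA of the same OVA nuclei was 3611, 1314 and 1476 CPM, so the peak and the RNA were both highest in sub-cluster 1 but did not share an order beyond it. The Cpa3 peak at chr3:20236529-20237444, in an intron of the gene, was 19.6-fold and 13-fold. The Cyp11a1 peak at chr9:58035682-58036605, 21472 bp downstream in an intron of Ccdc33, was 23.7-fold and 11.8-fold (5.30 to 23.6). Ms4a2 had its highest peak at chr19:11635218-11636206, over an exon of the neighbouring Ms4a3, at 8.31-fold and 10.8-fold (4.37 to 23.3). The distal peaks of Kit (69.3-fold, on 10 and 4 counts, 24270 bp upstream) and Gata2 (10.2-fold, 24107 bp upstream) had no overlapping PBS peak and could not be read there.

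**Figure D5:**
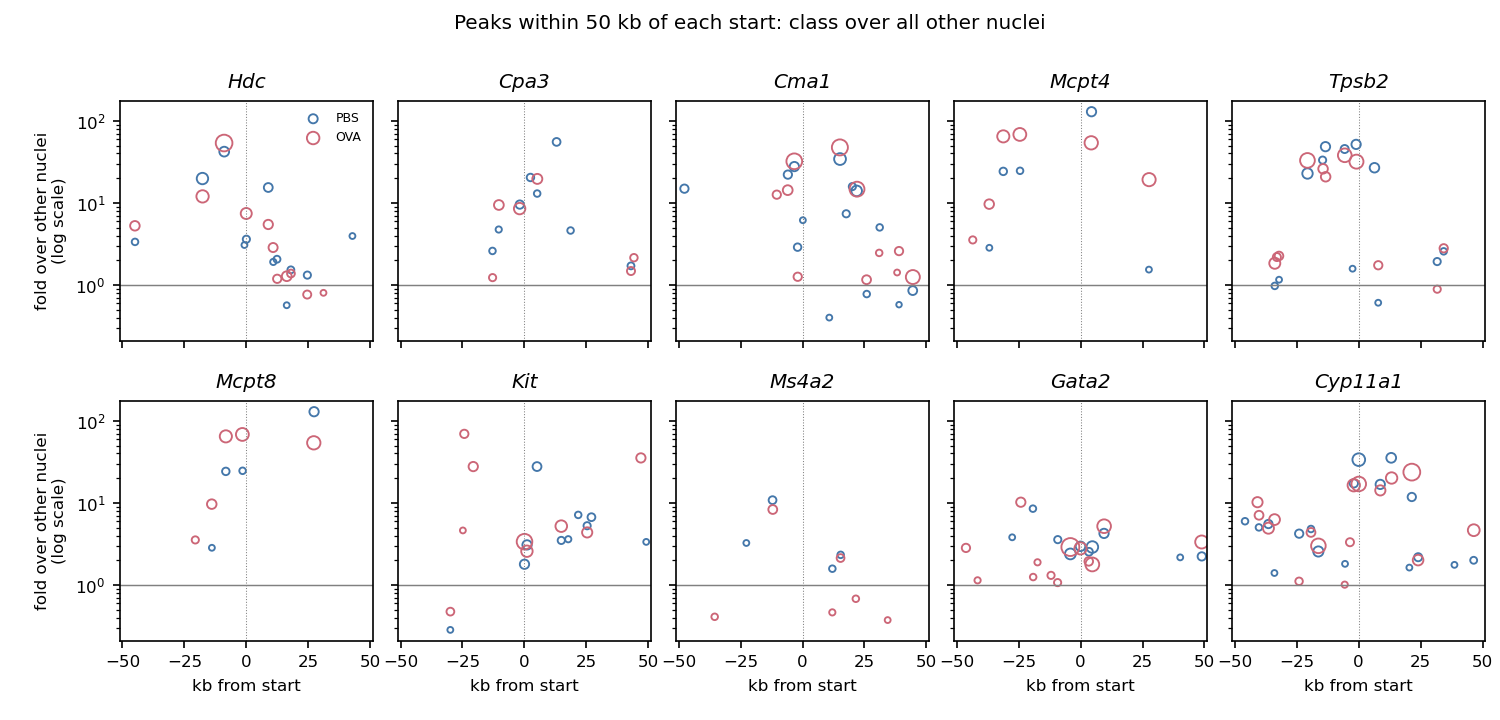
Fold (log scale) of transposition counts per 1000000 in the class over all other nuclei, for each peak within 50 kb of a start, against the distance of the peak's centre from the start (kb, negative upstream); blue is PBS, red is OVA, circle area grows with the counts in the class, and peaks with 0 counts in the class are not drawn. The peaks of Mcpt4 and Mcpt8, whose windows overlap, reach 68.2-fold in OVA and 129-fold in PBS nuclei, while those of Gata2 reach 10.2-fold and those of Ms4a2 10.8-fold.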

How the data were processed

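Nuclei of fetal lung were profiled for RNA and accessible chromatin in 1 PBS and 1 OVA library. The authors deposited raw counts for called barcodes, written by Cell Ranger ARC 2.0.1 per the submitters' processing notes on mm10, with no normalization: UMIs of 32285 gene features, and transposition counts in peaks called per library (134977 PBS, 120379 OVA). No column of another sample was present.

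As the study did, barcodes below 200 genes or above 60% mitochondrial UMIs were removed. The study also set limits on counts, at 1000 to 25000 gene UMIs and 1000 to 100000 transposition counts. Those limits were used only as an alternative, the joint filter on counts. Doublets were called in each library from simulated doublets among neighbours (6.76% of PBS and 4.98% of OVA nuclei) and removed. Both libraries were clustered together with scanpy 1.11.5 (3000 variable genes, 30 components, 15 neighbours, Leiden resolution 1.0), without the 10 genes or mitochondrial genes. Genes of the 7 lists were not left out. Clusters were named from markers of 24 cell types. Names rest on this rebuilt clustering. The class was clustered again on 1000 variable genes and 10 components at resolution 0.5, chosen after both it and 1.0 had been seen.

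UMIs were summed per class and divided by all gene UMIs (CPM). Sums have exact Poisson, shares Clopper-Pearson and ratios exact conditional binomial intervals (scipy 1.17.1), at 95%, covering counting error only. A count of 0 allows 3 counts. With 1 library per group, no test was run. The ratio step was tested on simulated data. Distances run to peak centres from the gene starts that came with the counts, with strands and exons from GENCODE M21. These starts differ from the GENCODE gene starts for Hdc, Mcpt8 and Cyp11a1. For Cyp11a1 they are 58014671, the inner start, and 58006411. RefSeq promoters were matched by gene symbol.

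The members, markers and lists were chosen with earlier results of these data known. Genes named were the members, members of the lists, the 5 highest and lowest genes between mast-protease-only and Mcpt8-only nuclei, and the 10 genes highest in the class. Peaks named were the one nearest each start within 1 kb and the distal one with the highest OVA fold. Alternatives changed doublet removal, the mitochondrial limit, the count filter, the clustering, the denominator, the window and the overlap. Leaving out the top nucleus, the levels under each setting and the second resolution were added after seeing the data. Some genes that met the rules for naming are not reported here.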

Additional observations from a re-analysis of the deposited data

Results flagged for a closer look

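Barcodes with 4 or more UMIs of Cma1, Mcpt4, Tpsb2, Cpa3 and Mcpt8 were also found among those that the report leaves out. In the PBS library 21 of 73 such barcodes failed the limit on genes or on mitochondrial UMIs, against 27 in the class. In the OVA library 8 of 99 failed, against 58 in the class. A further 12 in each library were called doublets.

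Tpsb2 moved in the opposite direction in 3 other classes than in the Mast cell or basophil-like class, where its log2 ratio of OVA over PBS was -0.65. It was 0.63 (0.014 to 1.28) in ILC2-like nuclei, 1.5 (0.46 to 2.68) in Myofibroblast or smooth muscle-like nuclei and 1.02 (0.027 to 2.07) in AT2-like nuclei. In Macrophage-like (0.20, -0.38 to 0.80), Fibroblast-like (0.20, -0.48 to 0.93), AT1-like (-0.061, -1.12 to 1.04) and unnamed nuclei (0.47, -0.74 to 1.76) the interval held 0. The difference between classes was not tested. In barcodes under 200 genes, Tpsb2 stood at 81.2 CPM in the PBS library and 183 CPM in the OVA library, and its part in these ratios was not tested.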

How the results depend on the processing

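Of 52 alternative values for the 4 comparisons, 29 lay within the counting interval, 20 moved beyond it and 3 changed sign. The cause of these moves was not tested, except that at most 20% mitochondrial UMIs left only 2 PBS and 14 OVA nuclei in the class. The share of member UMIs in the class was 39.3% (PBS) and 47.7% (OVA) with doublet calls kept, 13.2% and 22.6% at most 20% mitochondrial UMIs, 48.4% and 54.6% with the members in the clustering, and 44.3% and 52.9% at resolution 2.0. In the OVA library it was 48.7% at resolution 0.5 and 52.6% with the joint filter on counts. The OVA share of mast protease nuclei with Mcpt8 was 0.0% at most 20% mitochondrial UMIs. The members' median log2 ratio of -0.087 was 0.25 with doublet calls kept, 0.35 with the joint filter and 0.0061 with the members in the clustering, and had no value at most 20% mitochondrial UMIs, so its sign is not settled.

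The log2 fold of chromatin counts was 1.59 (PBS) and 1.75 (OVA) with doublet calls kept, 1.39 and 1.77 with the joint filter, 2.38 and 2.47 within 10 kb, and 1.04 and 1.10 within 100 kb. It was 2.72 in PBS nuclei at most 20% mitochondrial UMIs.

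Of 103 alternative ratios of single members, 77 lay within the counting interval, 10 moved beyond it and 16 changed sign. Of the 10 that moved, the joint filter gave Cyp11a1 1.49, Kit 1.22, Hdc 0.81 and Tpsb2 -0.34. Keeping doublet calls gave Hdc 0.88 and Kit 0.77. A limit of 20% mitochondrial UMIs gave Hdc 0.078. Centring on the median gene gave Hdc 0.14, Cpa3 -0.62 and Tpsb2 -1.0. The 16 sign changes follow. With doublet calls kept Cma1 was 0.14. At most 20% mitochondrial UMIs gave Cpa3 1.29, Kit -0.92, Gata2 -2.88 and Cyp11a1 -0.82. The joint filter gave Cpa3 0.11, Cma1 0.034 and Mcpt8 0.20. Resolution 2.0 gave Ms4a2 -0.015 and Cyp11a1 -0.011. Nuclear-gene UMIs gave Cyp11a1 -0.15. Centring on the median gene gave Kit -0.099, Gata2 -0.082 and Cyp11a1 -0.31. The mean CPM of single nuclei gave Kit -0.020, and Mcpt8 without its top nuclei was 0.086. No paired analysis was possible because the groups share only replicate number 1.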
